A study of Mus musculus with 35 samples.

Results

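Replication-dependent histone genes were examined in poly(A)-selected RNA of mouse embryonic fibroblasts (MEFs) in which the NELF subunit NELFB was deleted, replaced or mutated. All gene symbols in the count files that begin with Hist1h, Hist2h, Hist3h or Hist4h were taken, which gave 68 of the 24421 genes listed. By class, 6 encode the linker histone H1, 18 the core histone H2A, 19 H2B, 12 H3 and 13 H4. In the GENCODE M21 annotation of GRCm38, the build also known as mm10, all 68 were found: 54 in the Hist1 cluster on chromosome 13, 10 in Hist2 on chromosome 3, 3 in Hist3 on chromosome 11 and 1, Hist4h4, on chromosome 6. One of the 68, Hist3h2bb-ps, has no coding transcript.

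Clustered histone genes are switched on in S phase, when newly made DNA has to be packed into nucleosomes, and their mRNAs normally carry no poly(A) tail. The pre-mRNA holds a short stem-loop, bound by SLBP, and is cleaved just downstream of it by a complex that contains the U7 snRNP. Most other mRNAs are instead cleaved at a poly(A) signal and polyadenylated. NELF, a complex of NELFA, NELFB, NELFC (or NELFD) and NELFE that holds RNA polymerase II near promoters, interacts with the cap-binding complex and takes part in histone 3′ end formation, and loss of its subunits in other cell types has been linked to polyadenylated histone transcripts. A library made from poly(A) RNA therefore sees chiefly histone RNA that does have a tail, and not the bulk of histone mRNA.

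All cells were immortalized MEFs of the genotype Nelfb flox/-, so that the control cells too have only 1 functional allele of Nelfb. The 20 population libraries came from cells with a pLenti vector that was empty (EV) or carried wild-type NELFB (WT) or the mutants MT194, MT486 or MT194 and MT486 combined (DMT), sampled 7 days after Ad-Cre-GFP, an adenovirus with Cre recombinase that deletes the floxed allele, or after Ad-GFP, the control virus, with 2 replicates in each of the 10 groups (17969149 to 29080007 reads on genes per library). They are named here as EV-Cre, EV-GFP and so on. The 15 clone libraries came from clones isolated singly after Ad-Cre, 3 in each of 5 groups (18413284 to 27816723 reads): WT, MT194 and MT486 with pLenti vectors, WT(N48) with pBabe-WT-ATG-NELFB, and Δ-C60 with pBabe-delta-C60, which lacks the C-terminal end of NELFB. By the study's description, MT194 is impaired in binding NELFA and NELFC, and MT486 and Δ-C60 in binding NELFE. A clone library describes the descendants of 1 cell, and a population library the whole infected culture, with any cells that escaped Cre. In bulk RNA, fewer cells that express a histone gene and less RNA of it per cell cannot be told apart.

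The labelled cell type was checked against fibroblast markers. Fn1, Col1a1 and Vim had medians of 10180, 4549 and 1580 CPM (a gene's counts relative to all reads on genes in the library, TMM-scaled) over the 35 libraries, with populations and clones scaled apart, although Thy1 was at 0 to 0.1604 CPM. Pdgfra had a median of 988.5 CPM but went down to 5.48, in Δ-C60 clone 3. It was at 801.3 and 1064 CPM in the EV-Cre libraries and at 1707 and 2532 in EV-GFP, while the sum of the 9 fibroblast markers was 21390 and 33350 in EV-Cre and 21670 and 31250 in EV-GFP. Of the 8 fibroblast markers tested, 1 was called in EV-Cre against EV-GFP (an adjusted p under 0.05 and a log2 change over 1 in size), where their median log2 fold change was −0.65. This was S100a4, which fell from 40.9 and 63.4 CPM to 17.8 and 19.95 (log2 fold change −1.47, standard error 0.24, adjusted p = 0.001712, edgeR). S100a4 was also called higher in WT-Cre and in MT486-Cre than in EV-Cre, and its response to Cre differed between WT and EV (log2 difference 1.62, adjusted p = 0.0485, edgeR). The markers of other cell types summed to at most 2.02 CPM for 4 epithelial genes, 4.74 for 3 endothelial genes (mostly Kdr) and 5.98 for 3 blood genes (mostly Cd68), with Epcam, Krt8, Ptprc and Adgre1 at medians of 0. The 3 neural markers summed to 5.88 to 15.1 CPM in the populations and to 24.9 to 150.2 in the clones. Of these, Map2 reached 143.6 CPM in Δ-C60 clone 1, Tubb3 52.1 in an MT486 clone and Sox2, at a median of 0, 43.7 in an MT194 clone. What part such differences have in the histone values was not tested. Nelfb RNA followed the labels in the populations. It was at 46.1 and 39.5 CPM in EV-GFP and at 7.97 and 5.46 in EV-Cre, and at 60.5 to 208 CPM in the population libraries with Ad-Cre and a construct. In the clones it went against the label in 2 libraries: WT clone 1 and WT clone 3, as labelled, held 10.3 and 15.5 CPM of Nelfb, against 109 in WT clone 2 and at least 56.2 in the other 12 clones. Directions relative to the libraries labelled WT clones therefore rest on libraries of uncertain identity. Another library stood apart by the histone genes themselves: Δ-C60 clone 2, with a summed histone CPM of 986, against 147 and 94.3 in Δ-C60 clones 1 and 3, is given with and without in what follows.

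The stem-loop marks the end of a histone mRNA that was processed in the usual way, and was therefore sought in the first 100 bases after the stop codon of each annotated transcript. The 16-letter motif sought on the coding strand was GG, any 2 bases, CTTT, any 2 bases, AG, any 2 bases and CC. It was found in 44 of the 68 genes and in 8 of 40165 coding transcripts of other genes with as long a 3′ end (0.0199%). The first base of the match lay 21 to 58 bases after the stop codon, with a median of 31. Of the other 24, 15 have an annotation that ends within 2 bases of the stop codon, so that no stem-loop could be read, 8 have an annotated 3′ UTR whose letters do not hold the motif, among them Hist1h2bc, Hist2h2be, Hist1h1a and Hist1h3g, and 1 has no coding transcript. A missing match says only that these letters are not in this window. The sequences below are those of 6 genes on which the results turn, 5′ to 3′ on the strand of the gene, with both arms of the stem in capitals, and the loop and 5 flanking bases on each side in lower case. Positions are on GRCm38.
Hist1h1c, chr13:23739507-23739532, plus strand: caaaaGGCTCTtttcAGAGCCaccac
Hist1h1e, chr13:23621777-23621802, minus strand: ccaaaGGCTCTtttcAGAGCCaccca
Hist1h2be, chr13:23585526-23585551, minus strand: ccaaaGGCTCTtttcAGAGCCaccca
Hist1h3d, chr13:23576239-23576264, plus strand: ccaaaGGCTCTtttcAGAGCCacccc
Hist1h4h, chr13:23531453-23531478, plus strand: ccaaaGGCCCTtttcAGGGCCgccca
Hist1h4i, chr13:22040961-22040986, minus strand: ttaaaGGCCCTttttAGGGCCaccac

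The first 4 share the most frequent form of the stem-loop, which 26 of the 44 genes hold, and Hist1h4h has a form held by 7 genes, with a different base pair in the stem. All 6 stem-loops lie in an annotated 3′ UTR, and all of these genes but Hist1h2be have a single annotated exon. Beyond the stem-loop the annotations differ more than in it. In 24 genes the farthest annotated 3′ end is over 200 bases past the stop codon, as in Hist1h1c (880 bases), Hist1h2be (1906) and Hist1h1d (4931), and in 43 it is within 200 bases, as in Hist1h4h (93). Such long annotations can take in reads from transcripts that run past the stem-loop, and the genes that have them held 85.0% of all histone reads.

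The clustered histone genes were rare in these libraries. They took 105551 of the reads counted on genes in the 35 libraries, or 0.0137%, and 9 of the 68 had no read at all: Hist1h2ao, Hist1h2ap, Hist1h2bq, Hist1h2br, Hist1h4m, Hist2h2aa1, Hist2h2aa2, Hist2h3c1 and Hist2h3c2. A further 14 had under 100 reads in all libraries together. Hist1h1c (linker histone H1.2) held 39.4% of the reads and Hist1h2bc 25.05%, and the 6 genes with the most reads held 80.9%. Levels per length are given as CPM per kb of annotated exon, separately for populations and clones, which were scaled apart. Hist1h1c had the highest mean in the populations at 32.6, followed by Hist1h2bc (an H2B) at 27.2 and by the H4 genes Hist1h4h at 6.11 and Hist1h4i at 4.73. In the clones these means were 33.4, 29.4, 11.95 and 10.8. Δ-C60 clone 2 alone held 24.96% of all histone reads, and without it the means in the clones were 18.5 for Hist1h1c, 15.01 for Hist1h2bc, 8.34 for Hist1h4i and 2.24 for Hist1h4h. The order was not the same in every library. Hist1h1c was first in 17 of 20 population libraries and 11 of 15 clones, Hist1h2bc in 3 and 3, and Hist1h4i in 1, WT clone 2. The most abundant H3 gene per length was Hist1h3g, at 1.49 in the populations and 4.87 in the clones (2.64 without Δ-C60 clone 2), and the most abundant H2A gene Hist3h2a, at 2.39 and 3.09 (2.57). By class, H1 took 43.9% of the reads, H2B 35.1%, H4 9.83%, H2A 7.18% and H3 4.04%, so the core histones, which are present in equal numbers in the nucleosome, had unequal shares of these reads.

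**Figure D1:**
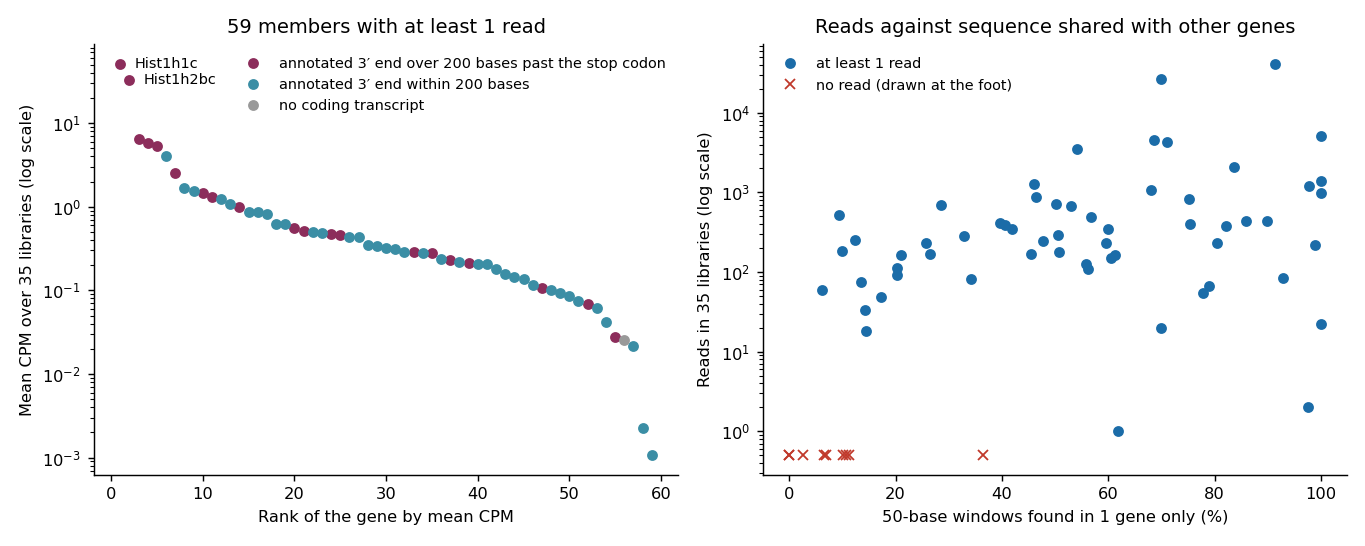
Left, mean CPM over 35 libraries, with populations and clones scaled apart (log scale), of the 59 clustered histone genes with a read, ordered by level and coloured by how far the annotated 3′ end lies past the stop codon. Right, total reads (log scale) against the share of a gene's 50-base windows that occur in 1 gene only. Hist1h1c and Hist1h2bc stand above all others, and the 9 genes without a read (crosses) lie between 0% and 36.5%.

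How reads could be placed bears on these counts. Histone genes of a class are near-copies of each other, the reads were 50 bases long, and alignments with a mapping quality under 30 were skipped in the counting. For each gene, the 50-base windows of its annotated transcripts were compared with all GENCODE transcripts on the same strand, and the share that occurs in no other gene had a median of 50.6%. In the 9 genes without a read this share ran from 0 to 36.5%, with a median of 6.93%, and in the 59 with a read the median was 56.2%. Linker histone genes were the most distinct (median 98.9%), and H2A genes the least (27.0%). Reads that fit several genes are missing from these counts, so a level is a lower limit wherever this share is low. What part this had in the order of the genes was not tested. Exons of 24 members also overlap exons of another annotated gene, in 21 cases on the opposite strand, and the sources used here leave the strand setting of the counting unstated. Hist1h1e and Hist1h2be overlap each other on the same strand, where a read on both is not counted for either.

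In every construct the summed level of the histone genes was higher after Ad-Cre than after Ad-GFP, with the smallest ratio for wild-type NELFB. The summed CPM of the 68 genes was 197 and 129 in EV-Cre (replicates 1 and 2) and 102 and 64.1 in EV-GFP. With MT194 it was 222 and 146 after Ad-Cre and 124 and 81.0 after Ad-GFP. With DMT it was 224 and 141 after Ad-Cre and 93.8 and 69.1 after Ad-GFP, so that the libraries with Cre were above all those without in these 3 constructs. With MT486 it was 134 and 104 after Ad-Cre and 100 and 54.4 after Ad-GFP, and with WT 124 and 95.2 after Ad-Cre and 109 and 76.1 after Ad-GFP. The groups with and without Cre did not overlap in EV, MT194, DMT and MT486, and overlapped in WT. As ratios of geometric means, the sum was 1.97-fold higher with Cre in EV (log2 0.98, standard error 0.45, n = 2 against 2), 2.21-fold in DMT (1.15, 0.40), 1.80-fold in MT194 (0.85, 0.43), 1.59-fold in MT486 (0.67, 0.48) and 1.19-fold in WT (0.25, 0.32). The standard errors take the libraries as unpaired, so they include the gap between replicates 1 and 2 that is described below. The sums were given no test, and with 2 libraries a group no permutation test of a single construct could have passed. In order of the mean sum, MT194-Cre, DMT-Cre and EV-Cre came first and MT486-GFP last, and each group overlapped the next in that order.

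**Figure D2:**
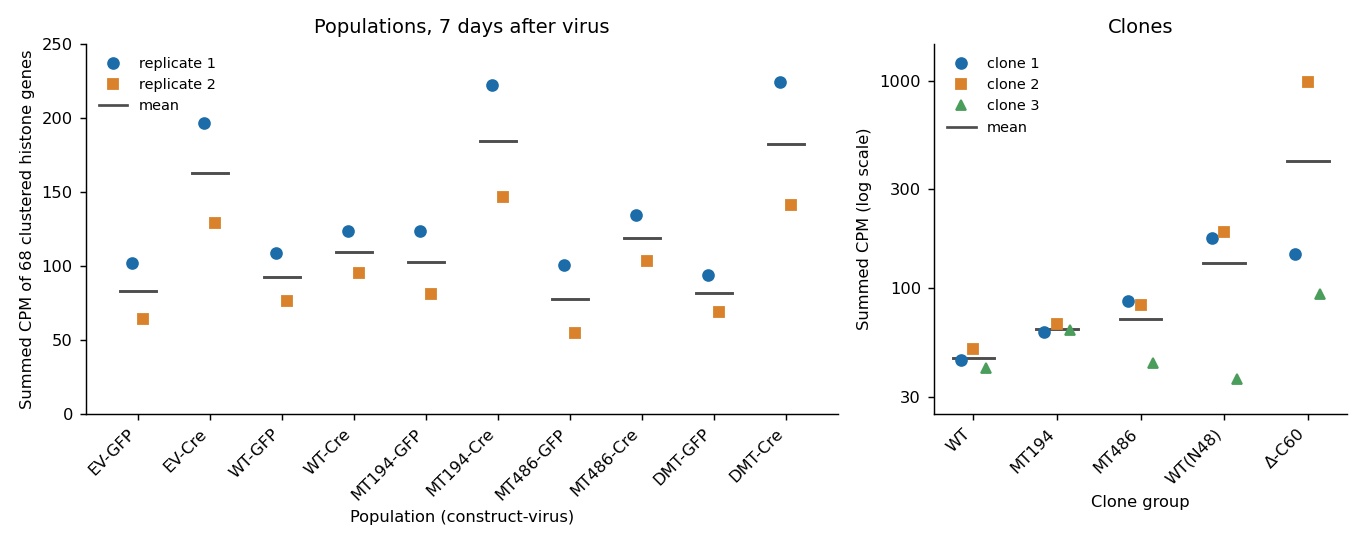
Summed CPM of the 68 clustered histone genes in each library, with bars at group means: left, the 10 population groups on a linear axis; right, the 5 clone groups on a log axis. Ad-Cre libraries lie above the Ad-GFP library of the same construct and replicate in 10 of 10 pairs, replicate 1 lies above replicate 2 in all 10 population groups, and Δ-C60 clone 2 lies at 986.

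Replicate 1 had a higher sum than replicate 2 in 10 of 10 population groups, by 1.30 to 1.85-fold (median 1.52). Replicate numbers pair the populations, so the ratio of Cre to GFP was also taken within each. It was 1.93 and 2.01 in EV, 1.80 and 1.81 in MT194, 2.39 and 2.04 in DMT, 1.34 and 1.90 in MT486, and 1.14 and 1.25 in WT, and was above 1 in 10 of 10 pairs. Within an experiment, the ratio in WT was thus below that of every other construct in both replicates. Replicate 1 was also higher than replicate 2 in 10 of 10 groups for the sum of 11 replication-independent histone variants, whose mRNAs are polyadenylated as a rule, by 1.15 to 1.40-fold. It was higher in all 10 groups for H1 and H2B and in 9 for H2A and H3. For H4 it was higher in 7, not counting WT-GFP, where the sums were nearly equal (4.658 and 4.657 CPM). The count was 7 for the S phase genes, 4 for the mitosis genes and 5 for 3 RNAs without a tail that are described further on.

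The ratio of Cre to GFP differed between the classes. In EV, summed CPM was 3.15-fold higher with Cre for H4 (from 5.01 and 3.27 in EV-GFP to 14.2 and 11.4 in EV-Cre) and 3.08-fold for H3, against 2.13-fold for H1, 1.72-fold for H2B and 1.61-fold for H2A. H4 and H3 also had the largest ratios in DMT (4.18 and 3.81), MT194 (2.99 and 2.82), MT486 (2.82 and 3.00) and WT (1.54 and 1.93). Genes whose annotated 3′ end is within 200 bases of the stop codon had a sum 3.48-fold higher with Cre in EV, and those with a longer annotated 3′ end 1.86-fold. The corresponding ratios were 4.16 and 2.06 in DMT, 2.89 and 1.70 in MT194, 3.23 and 1.44 in MT486 and 1.87 and 1.15 in WT. Over the genes that also passed the filter on low counts with the Ad-GFP libraries alone, 6 with a short annotated end and 9 with a longer one, the median log2 fold changes were 2.07 and 0.97 in EV, 2.22 and 1.35 in DMT, 1.70 and 1.08 in MT486 and 0.89 and 0.30 in WT. In MT194 the order was the reverse, at 1.27 and 1.43, and the ranges of both groups overlapped in every construct. The groups of classes and of annotated ends share genes, and most reads of the longer group are from Hist1h1c and Hist1h2bc. Without these 2, the sum of all other histone genes was higher by 2.28-fold in EV, 2.85-fold in DMT, 2.24-fold in MT194, 2.21-fold in MT486 and 1.36-fold in WT. None of these differences between groups of histone genes was tested.

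For single genes, 32 of the 68 had enough reads in the populations to be tested, 29 were tested neither there nor in the clones, and 15 of the 32 would also have passed on the Ad-GFP libraries alone. Calls required an adjusted p under 0.05 together with a change of more than 1, in either direction, on the log2 scale. In EV-Cre against EV-GFP, 9 of the 32 were called, all higher with Cre, where 6.52% of all 13805 genes tested were called and 3.28% were called higher. They were the linker histones Hist1h1a, Hist1h1b and Hist1h1e, the H2A gene Hist1h2ad, the H2B genes Hist1h2be and Hist2h2bb, the H3 gene Hist1h3d and the H4 genes Hist1h4h and Hist1h4k. Of the 15 genes that pass on Ad-GFP libraries alone, all 15 had a positive log2 fold change, with a median of 1.61 beside −0.01 for all genes that pass in the same way. Because a gene that passes only through its Ad-Cre libraries had to differ, the 32 themselves are not summarised by a median, and of the 9 called, all but Hist1h2ad are among the 15. With the replicate number as a block, which the pairing calls for, 14 of the 32 were called, with 9.74% of all genes, adding Hist1h1c (log2 fold change 1.01, adjusted p = 0.0002395, edgeR), Hist1h1d, Hist1h2ac, Hist1h2bb and Hist1h3i. Of these 14, 10 are among the 15.

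Hist1h4h, an H4 gene at chr13:23531050-23531519 with an annotated 3′ end 93 bases past the stop codon, had the smallest adjusted p of the members called in EV, MT194, MT486 and DMT. It had 6.17 and 4.42 CPM in EV-Cre (137 and 94 reads) and 0.786 and 0.634 in EV-GFP (16 and 13 reads), with no overlap. Its log2 fold change was 2.89 (standard error 0.27), with an adjusted p of 4.388e-05 in the quasi-likelihood test of edgeR, corrected by Benjamini-Hochberg over all genes as in every adjusted p that follows. Hist1h4h was also called in DMT, from 1.04 and 0.648 CPM to 6.57 and 5.94 (log2 fold change 2.91, adjusted p = 5.433e-05, edgeR). In MT194 it went from 1.62 and 1.24 to 6.51 and 6.16 CPM (2.14, adjusted p = 0.0005739, edgeR), and in MT486 from 1.14 and 0.968 to 3.62 and 3.90 (1.83, adjusted p = 0.002963, edgeR). With WT the values were 0.880 and 1.21 CPM after Ad-GFP and 2.07 and 1.91 after Ad-Cre, which also do not overlap but did not pass the test (0.92, adjusted p = 0.4781, edgeR). Without the replicate block, Hist1h4h was the only member called in EV, MT194, MT486 and DMT alike, and it kept each of these calls under the 8 alternatives run. With the block, Hist1h1a, Hist1h1d, Hist1h1e, Hist1h2ad, Hist1h2be and Hist1h3d were also called in all 4. Of these, Hist1h2ad passed the filter only with the Ad-Cre libraries included, so that its calls are no support.

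Of the linker histones, which bind the DNA between nucleosomes, Hist1h1a, Hist1h1b and Hist1h1e were also called in EV. Hist1h1e (H1.4), on chr13:23620629-23622558, had 2.30 and 1.55 CPM in EV-Cre and 0.491 and 0.244 in EV-GFP. Its log2 fold change was 2.37 (standard error 0.45, adjusted p = 0.004299, edgeR), and the groups did not overlap. It was also called in MT194 (2.69) and DMT (3.03), and in WT its groups overlapped, with 0.786 and 0.382 CPM after Ad-Cre and 0.673 and 0.403 after Ad-GFP. Hist1h1a (H1.1) had 2.79 and 1.41 CPM in EV-Cre and 0.197 and 0.487 in EV-GFP (log2 fold change 2.60, standard error 0.60, adjusted p = 0.01344, edgeR), and was called in MT194 and DMT as well. Hist1h1b (H1.5) had 1.67 and 1.65 CPM in EV-Cre and 0.590 and 0.487 in EV-GFP (log2 fold change 1.61, standard error 0.44, adjusted p = 0.02802, edgeR) and, without the block, was called in EV alone, where leaving out any 1 of the 4 libraries ended the call. With the block it was called in EV, MT194 and DMT. Hist1h1d (H1.3) was called in DMT, with 4.13 and 1.40 CPM against 0.520 and 0.288 (log2 fold change 2.81, standard error 0.57, adjusted p = 0.007315, edgeR). Hist1h1c, by far the most abundant, had 87.8 and 55.2 CPM in EV-Cre and 49.6 and 23.5 in EV-GFP. These groups did not overlap, and the difference did not pass the test without the block (log2 fold change 0.97, standard error 0.48, adjusted p = 0.2197, edgeR).

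Among the core histones, Hist1h2be (H2B) had 4.73 and 3.91 CPM in EV-Cre and 0.983 and 1.07 in EV-GFP (log2 fold change 2.06, standard error 0.38, adjusted p = 0.00349, edgeR). It was called in MT194 and DMT, and in WT only with the replicate block, where it was the 1 member called (log2 fold change 1.46, adjusted p = 0.0181, edgeR). Hist2h2bb (H2B), whose annotation ends at the stop codon, had 1.53 and 3.06 CPM in EV-Cre and 0.639 and 0.341 in EV-GFP (log2 fold change 2.21, standard error 0.45, adjusted p = 0.006391, edgeR). In EV-Cre replicate 2 was the higher one, against the order of the sums. Hist1h3d (H3) had 1.49 and 0.847 CPM against 0.295 and 0.195 (log2 fold change 2.23, standard error 0.58, adjusted p = 0.02299, edgeR). Hist1h4k (H4) had 0.901 and 1.18 CPM against 0.295 and 0.244 (log2 fold change 1.92, standard error 0.54, adjusted p = 0.03194, edgeR), and lost its call when any 1 of the 4 libraries was left out. Hist1h2ad (H2A) passed the filter only with the Ad-Cre libraries included, so that its call is no support. It rested on 10 and 13 reads in EV-Cre and 4 and 1 in EV-GFP, and was lost under DESeq2, without the filter on low counts and when any 1 library was left out. Of the other calls in EV, Hist1h4h and Hist1h2be were kept whichever library was left out. All fits that leave out a library were run without the replicate block. Hist1h1a was lost without EV-Cre replicate 1 or EV-GFP replicate 1, Hist1h1e without EV-GFP replicate 2, and Hist2h2bb without replicate 2 of either group. Hist1h3d was lost without EV-Cre replicate 1 or either EV-GFP library.

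The other abundant core histone genes had smaller differences. Hist1h2bc, the H2B gene with the most reads, had 52.0 and 26.5 CPM in EV-Cre and 28.8 and 18.4 in EV-GFP (log2 fold change 0.73, adjusted p = 0.3493, edgeR). These groups overlap, although Cre was the higher within each replicate. Hist2h2be (H2B) had 9.41 and 9.79 against 7.08 and 7.17 CPM (0.43, adjusted p = 0.07716, edgeR), a difference with little spread that passed neither threshold, in size or adjusted p. Hist3h2a (H2A) had 6.58 and 5.13 against 4.57 and 4.29 CPM (0.40, adjusted p = 0.4685, edgeR). Hist1h4i (H4) had 4.64 and 3.81 against 2.70 and 1.75 (0.92, adjusted p = 0.1354, edgeR), and was called in MT194 and DMT. Hist1h3g, the H3 gene with the highest level per length, had 0.946 and 0.282 against 0.344 and 0.292 CPM, which overlap.

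**Figure D3:**
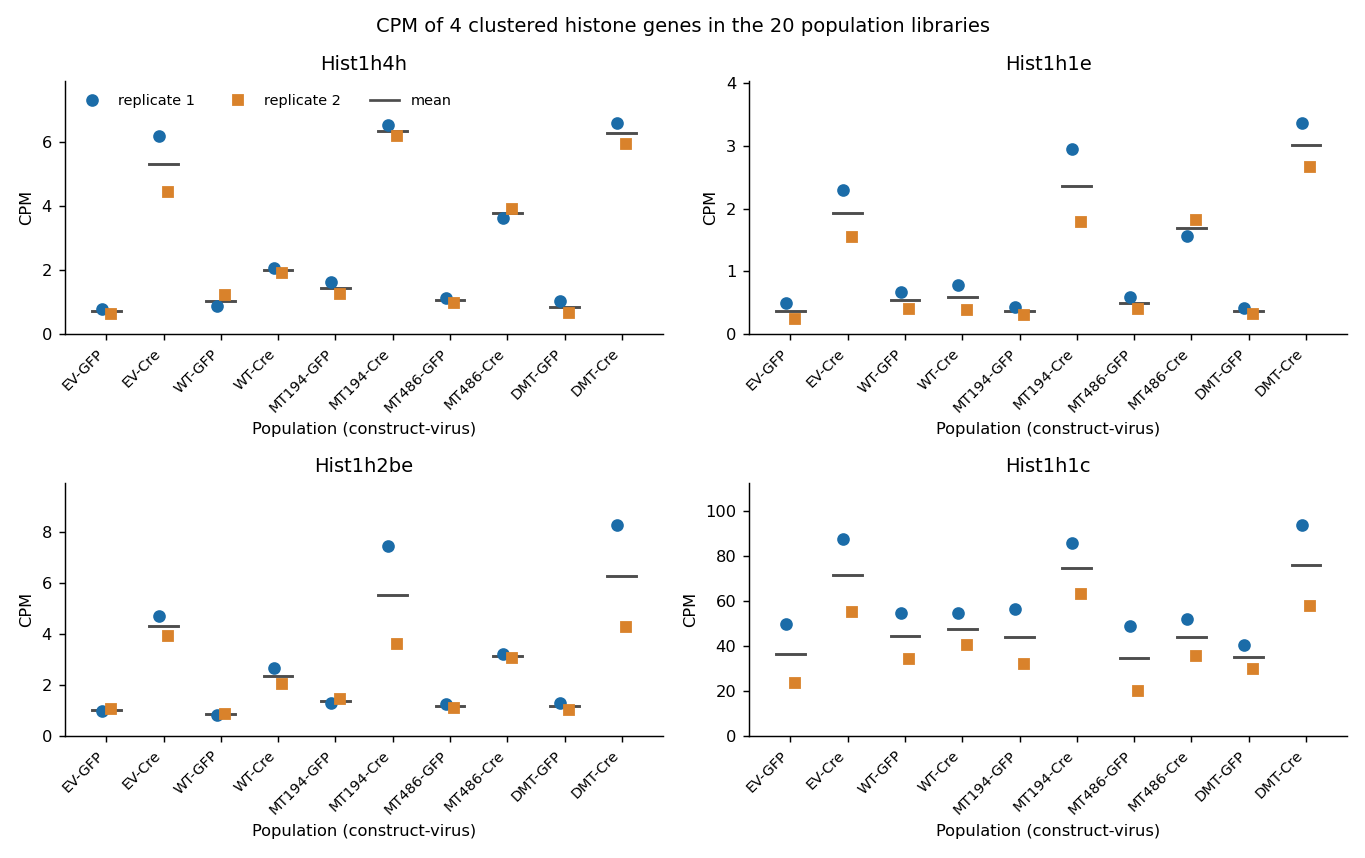
CPM of Hist1h4h, Hist1h1e, Hist1h2be and Hist1h1c in the 20 population libraries, with bars at group means and every axis starting at 0. Hist1h4h lies at 0.634 to 1.62 CPM in all Ad-GFP libraries, at 1.91 to 2.07 in WT-Cre and at 3.62 to 6.57 in the other Ad-Cre libraries. Hist1h1c, the most abundant gene, has a wide gap between replicates in most groups.

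With MT194, 7 of the 32 genes were called, all higher with Cre, where 2.48% of all genes were called and 1.2% called higher. With DMT 12 were called, all higher (5.31% of all genes, 2.61% higher), with MT486 2, both higher (1.46%, 0.732% higher), and with WT 0 (0.0217%). These counts include genes that passed the filter only through the Ad-Cre libraries. Of the 15 that pass on Ad-GFP libraries alone, 8 were called in EV, 7 in DMT, 5 in MT194, 1 in MT486 and 0 in WT. With WT, 3 of the 32 had an unadjusted p under 0.05, and DESeq2 called 0 too, where it called 28 of 13105 genes. For MT486, DESeq2 called 7 members (2.59% of all genes). With the replicate block the counts were 18 for MT194 (5.39% of all genes), 20 for DMT (8.8%), 16 for MT486 (4.24%) and 1 for WT (0.869%), of which 9, 11, 9 and 1 are among the 15 that pass on Ad-GFP libraries alone. Leaving out 1 library left 1 to 6 calls in MT194 (1.06% to 1.64% of all genes), 4 to 10 in DMT (2.51% to 3.75%) and 1 in MT486 (0.475% to 0.76%). In MT194 and MT486, Hist1h4h was kept whichever library was left out, and in DMT Hist1h1e, Hist1h2be and Hist1h4h were. Beside the genes already named, MT194 and DMT brought calls of the H4 genes Hist1h4a and Hist1h4i, DMT those of Hist1h2ac, Hist1h3b and Hist1h3i, and MT486 that of Hist1h3b. Of these, Hist1h4i went from 2.29 and 2.29 CPM to 7.87 and 4.43 in MT194 (log2 fold change 1.43, adjusted p = 0.04815, edgeR) and from 2.03 and 1.58 to 8.37 and 4.18 in DMT (1.81, adjusted p = 0.008532, edgeR). The others had 0 to 3 reads in each Ad-GFP library of the construct in which they were called, and a fold change set by so few reads is not given. Hist1h3b, for instance, had 1 and 0 reads in MT486-GFP and 16 and 13 in MT486-Cre, and 2 and 2 reads in DMT-GFP and 21 and 25 in DMT-Cre.

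Of the 9 genes called in EV, the 8 that pass on Ad-GFP libraries alone are described across constructs, with no test, since EV chose them. Their median log2 fold change with Cre was 2.22 in EV, 2.42 in DMT, 1.81 in MT194 and 1.62 in MT486, with all 8 positive in each. In WT it was 0.96, with 7 positive, from −0.12 for Hist2h2bb to 1.48 for Hist1h2be, and no adjusted p was under 0.3966 (edgeR). Of the 15 genes that pass on Ad-GFP libraries alone, 15 were positive in MT194 (median 1.27), MT486 (1.43) and DMT (1.81) and 13 in WT (0.51).

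**Figure D4:**
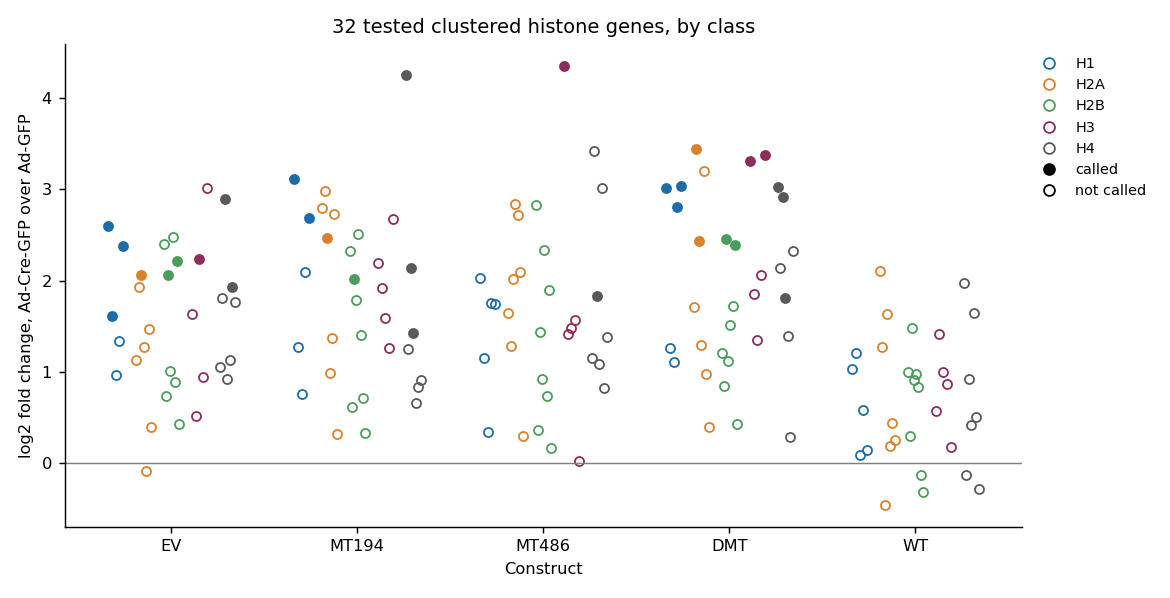
log2 fold change with Ad-Cre-GFP over Ad-GFP of the 32 tested clustered histone genes in each construct, coloured by class, with filled points for genes called (adjusted p under 0.05 and absolute log2 fold change over 1). Of the 15 genes that pass on Ad-GFP libraries alone, the points of all 15 are above 0 in EV, MT194, MT486 and DMT and those of 13 in WT. Points of genes with 3 or fewer Ad-GFP reads depend on the prior count of the fit.

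Whether the Cre effect itself differed between constructs was tested as an interaction. Against EV, the Cre effect in WT was smaller for Hist1h4h (log2 difference −1.97, standard error 0.39, adjusted p = 0.04018, edgeR), the only one of the 32 members called, where 0.681% of all genes were called at an adjusted p under 0.05. This call was lost when any 1 of the 8 libraries was left out and without the filter on low counts, with an adjusted p of up to 0.212 (edgeR), and was kept under DESeq2, its size factors and the block. With the replicate block, 5 of the 32 were called, a share no higher than the 17.3% of all genes called in that fit. They were Hist1h1c, Hist1h1e, Hist1h4h, Hist2h2bb and Hist2h2be, of which Hist1h1c had a value of −0.89 (adjusted p = 0.01916, edgeR). All 15 genes that pass on Ad-GFP libraries alone had a negative interaction for WT, with a median of −0.75. For MT194, MT486 and DMT against EV, 0 of the 32 were called, with or without the block and under DESeq2. Of all genes, 0.00724% were called in each without the block and 0.992%, 2.96% and 0.00724% with it. DESeq2 called 18 of 19418, 44 of 10877 and 1 of 19418 genes. Of the 32, 2, 2 and 1 had an unadjusted p under 0.05. The lack of member calls does not show that these constructs act like the empty vector. For Hist1h4h the interactions were −0.75 (standard error 0.37) for MT194, −1.06 (0.38) for MT486 and 0.02 (0.41) for DMT.

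The Ad-Cre libraries were also compared with EV-Cre directly, which all 4 comparisons share. WT-Cre had 3 members called, all lower than in EV-Cre (4.05% of all genes called, 1.92% called lower). They were Hist2h2bb, at 0.621 and 0.334 CPM against 1.53 and 3.06 (log2 fold change −2.23, standard error 0.44, adjusted p = 0.0101, edgeR), Hist1h1e, at 0.786 and 0.382 against 2.30 and 1.55 (−1.69, standard error 0.42, adjusted p = 0.02738, edgeR) and Hist1h4h, at 2.07 and 1.91 against 6.17 and 4.42 (−1.41, standard error 0.24, adjusted p = 0.004746, edgeR). With the replicate block 9 members were called (8.63% of all genes). Hist1h1e lost its call when any 1 of the 4 libraries was left out, Hist2h2bb also when EV-Cre replicate 2 was left out, and no member was called without WT-Cre replicate 2. MT194-Cre, MT486-Cre and DMT-Cre had 0 members called against EV-Cre, with or without the block and under DESeq2 (0.174%, 0.217% and 0.00724% of all genes called without the block, and 1.83%, 3.12% and 0.0797% with it), and 1, 2 and 1 of the 32 had an unadjusted p under 0.05. DESeq2 called 99 of 14219, 232 of 12733 and 2 of 19418 genes in these comparisons.

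Genes that act on histone RNA, or that follow the cell cycle, were read beside these values. Of 36 genes for histone 3′ processing and turnover, from the stem-loop binding protein gene Slbp to the exonuclease gene Eri1 and the Lsm genes, Nelfb alone was called in EV, lower with Cre (log2 fold change −2.67, adjusted p = 2.528e-05, edgeR), and Nelfb alone in DMT, where it was higher. Against EV-Cre, Nelfb was the only one of the 36 called in WT-Cre, MT194-Cre, MT486-Cre and DMT-Cre, higher in each. Slbp had 43.8 and 27.5 CPM in EV-Cre and 33.1 and 28.4 in EV-GFP, which overlap (log2 fold change 0.22, adjusted p = 0.6721, edgeR). Of 11 replication-independent histone variants, such as H3f3b, H1f0 and H2afx, and of 11 histone chaperones, 0 were called in any Cre effect, and the median log2 fold changes in EV were −0.05 and 0.15. The variant gene Cenpa was called in WT-Cre against EV-Cre, where it was higher.

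Cell cycle genes are given beside the histone genes by construct, with no test between the lists. The summed CPM of 34 S phase genes, such as Mcm2 and Pcna, was 1403 and 990 in EV-Cre and 1255 and 1386 in EV-GFP, with 0 called and a median log2 fold change of −0.06. It was 1901 and 1846 in WT-Cre and 1314 and 1196 in WT-GFP, with 0 called and a median of 0.62. Within replicates 1 and 2 the S phase ratio of Cre to GFP was 1.12 and 0.714 in EV, 1.41 and 0.776 in MT194, 1.77 and 1.12 in MT486, 1.43 and 1.14 in DMT and 1.45 and 1.54 in WT. In DMT the median was 0.43, with Ccne2 called higher, in MT486 0.51 and in MT194 0.11. Of 9 mitosis genes, Ccnb1 was called lower in EV (log2 fold change −1.30, adjusted p = 0.04801, edgeR) with a list median of −0.82, and 6 (Aurka, Aurkb, Ccnb1, Ccnb2, Plk1 and Top2a) were called higher in WT-Cre than in EV-Cre, as was the S phase gene Tk1. In the clones, Cdt1 was called lower in Δ-C60 than in WT clones. What part cell cycle differences have in the histone values was not tested.

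Poly(A) selection can let through RNA without a tail, and 3 RNAs known for lacking one were chosen after the data had been seen: Rmrp, Rpph1 and Terc. Their summed CPM was 3.65 and 7.01 in EV-Cre and 1.48 and 1.71 in EV-GFP, and these groups did not overlap. With DMT it was 1.76 and 2.51 after Ad-Cre and 2.23 and 2.30 after Ad-GFP, where the groups overlapped. The sum was 9.76 and 1.88 with MT194 after Ad-Cre and 5.01 and 1.54 after Ad-GFP, 1.88 and 53.5 against 1.78 and 1.59 with MT486, 2.98 and 2.38 in WT-Cre and 5.95 and 1.48 in WT-GFP. None of the 3 was called in any comparison of the populations, and the 2 tested in the clones were not called there. What part such carry-over has in the histone values was not tested. Reads on no gene made up 11.7% to 21.3% of the reads in the populations, with 15.45% and 18.8% in EV-Cre and 13.9% and 17.7% in EV-GFP. Transcripts that run past a gene's annotated end are not counted on it and were not measured here.

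In the clones the histone sums ranged widely within some groups. They were 45.3, 51.4 and 41.6 CPM in the libraries labelled WT clones 1 to 3, 61.9, 67.2 and 63.3 in MT194, 87.3, 83.2 and 43.8 in MT486, 175, 186 and 36.7 in WT(N48), and 147, 986 and 94.3 in Δ-C60. In order of the mean, each group overlapped the next, except that MT194 and WT clones did not overlap. Populations and clones were scaled separately, so histone levels of groups are compared only within each. For Δ-C60 against WT(N48) clones, both with pBabe vectors, 0 of the 34 members tested were called by edgeR, as were 0% of all 13223 genes, 12 had an unadjusted p under 0.05, and DESeq2 called 3 (1.09% of all genes). The ratio of the sums was 2.25 (log2 1.17, standard error 1.29, n = 3 against 3) and 1.11 (log2 0.15) without Δ-C60 clone 2, when 0 members were called by edgeR and 1.61% of all genes.

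Against the libraries labelled WT clones, 10 of the 34 members were called higher in Δ-C60 (5.38% of all genes called, 3.69% called higher): Hist1h1a, Hist1h1c, Hist1h1d, Hist1h2ah, Hist1h2bc, Hist1h2be, Hist1h2bg, Hist1h3b, Hist1h3d and Hist1h4h. The filter on low counts was run with the Δ-C60 clones included, so a member can be among the 34, or the 10, only through them. A call of such a member is no support. Hist1h1c had 65.2, 379 and 26.3 CPM against 11.5, 7.22 and 11.01 (log2 fold change 3.98, standard error 1.00, adjusted p = 0.03268, edgeR). The size of this fold change rests largely on Δ-C60 clone 2, as the mean of Δ-C60 clones 1 and 3 was 45.75 CPM. Hist1h3b had the smallest adjusted p of the 10 (0.01475, edgeR). Hist1h3b rested on 16, 131 and 27 reads in Δ-C60 clones against 1, 3 and 2 in WT clones, so that its fold change is not given. The sum was 5.20-fold higher, with no overlap, and 2.56-fold higher without Δ-C60 clone 2. DESeq2 called 19 (8.92% of all genes). Without Δ-C60 clone 2, 2 members were called (8.74% of all genes), and without the libraries labelled WT clones 1 and 3, none, where 0.0214% of all genes were called. Leaving out WT clone 1, 2 or 3 alone left 0, 1 and 0, with 0.69%, 2.2% and 0.956% of all genes called. The fibroblast marker Fn1 was called higher in this comparison too, and the fibroblast marker sum was 14600 to 23770 CPM in Δ-C60 against 7435 to 11540 in WT clones. The S phase sum in Δ-C60 was 0.749 times that in WT clones, and the sum of Rmrp, Rpph1 and Terc 0.259 times, both with no overlap. Their part in the histone values was not tested. MT194 and MT486 clones had 0 members called against WT clones by edgeR (1.47% and 0% of all genes), and 0 and 3 of the 34 had an unadjusted p under 0.05. DESeq2 also called 0 members, where it called 495 of 13258 and 121 of 14351 genes. The higher sum in MT194 than in WT clones (1.40-fold) rested on Hist1h1c, at 27.6, 32.8 and 22.7 CPM against 11.5, 7.22 and 11.01. Without it the ratio was 1.02. Hist1h1c itself did not pass the test there (log2 fold change 1.48, standard error 0.92, adjusted p = 0.3821, edgeR).

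Δ-C60 clone 2 had the highest CPM of all 15 clones in 32 of the 34 members tested, against 12.9% of all genes tested. This tally is no test, since the clone was picked out by its histone sum. The filter on low counts also included it, so members can be among the 34 only through this library. The histone sum of Δ-C60 clone 2 was 8.18 times the mean of Δ-C60 clones 1 and 3, from 26349 reads. By class the ratio was 9.87 for H4, 8.99 for H2B, 8.19 for H1, 7.50 for H3 and 4.31 for H2A. Hist1h4h reached 69.5 CPM (1857 reads), against 0.842 and 1.53 in clones 1 and 3 (52 reads together) and at most 4.85 in WT(N48), a ratio of 58.6. Hist1h2ac had 8.12 CPM against 0.1604 and 0.148, from 7 reads in clones 1 and 3 together. Hist2h2be, with a ratio of 2.25, and Hist3h2a, with 2.94, had the smallest ratios of the genes named here. Nelfb in clone 2 was at 208 CPM, beside 247 and 218 in clones 1 and 3. The S phase sum was 0.858, the mitosis sum 0.865, the sum of 36 processing genes 0.945 and the sum of the variants 1.16 times the mean of clones 1 and 3, and the sum of Rmrp, Rpph1 and Terc was 2.69 CPM against 2.65 and 2.81. Cell type markers also differed in clone 2. The 9 fibroblast markers summed to 0.627 times the mean of clones 1 and 3, although Pdgfra was at 988.5 CPM against 175.6 and 5.48. The 3 neural markers summed to 28.6 CPM against 150.2 and 107, mostly through Map2 at 10.4 against 143.6 and 103.9, while Tubb3 was higher, at 17.3 against 6.50 and 3.26. The endothelial sum was 1.01 CPM against 0.722 and 4.74, the epithelial sum 0.487 against 1.32 and 0.444, and the blood sum 2.17 against 2.49 and 1.58. Their part in the histone values was not tested. This is 1 library, with no second library of the clone.

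**Figure D5:**
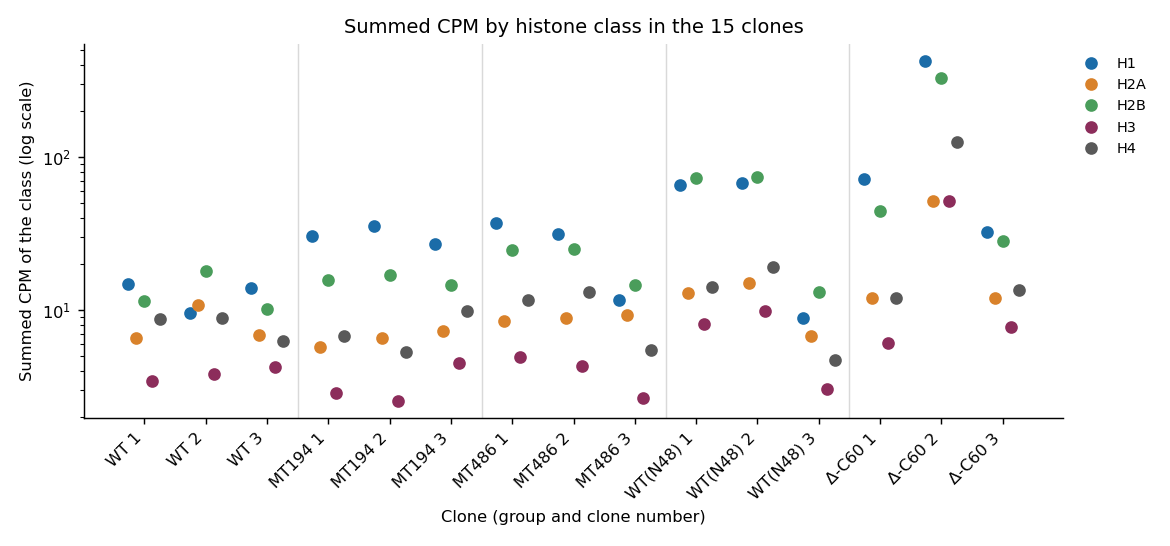
Summed CPM of each histone class (log scale) in the 15 clones, 3 clones in each group. All 5 classes peak in Δ-C60 clone 2, from 51.8 CPM for H2A to 427 for H1, and WT(N48) clones 1 and 2 lie above WT(N48) clone 3 in every class.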

How the data were processed

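Poly(A) RNA of 20 population and 15 clone libraries had been sequenced in single 50-base reads from a strand-marking kit. The authors aligned them to mm10 with Bowtie2, skipped alignments with a mapping quality under 30, counted reads on genes with HTSeq and used DESeq2. The deposited values are these whole-number counts, without normalization, with 17969149 to 29080007 reads on genes per library.

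Populations and clones were fitted separately with edgeR 4.0.16 in R 4.3.3: filterByExpr, TMM scaling, 1 mean per group, robust quasi-likelihood, Benjamini-Hochberg adjustment over the 13805 and 13223 genes tested. Standard errors of single genes are the fold change divided by the square root of F. Those of the sums come from the spread of log2 sums within each group, unpaired. DESeq2 1.42.0, its size factors, no filter, a log2 threshold of 0.5, the replicate block, the sum without its most-read member and leave-one-out fits were alternatives. Leave-one-out fits had no block, so they do not use the pairing of the populations. The steps were checked on simulated counts. Gene positions, stem-loops and 50-base windows came from GENCODE M21, and no genome sequence was used.

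Replicate numbers pair the populations: deviations of replicate 1 correlated over 0.1 for all 45 group pairs (from 0.420 up to 0.730), and the study describes independent experiments. Named genes were the 15 with the highest mean CPM, every member called and the highest per length in each class. Members, gene lists, tests and this rule were chosen with earlier results of these data known. P-values measure the spread between these libraries. The result for 1 gene of the S phase list is not reported here.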

Additional observations from a re-analysis of the deposited data

Results flagged for a closer look

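Hist1h4h was flagged because its response to Cre differed between constructs by a test of the difference itself. The interaction of WT against EV was −1.972 (log2, standard error 0.39), with an adjusted p of 0.04018 from edgeR over 13805 genes. As given above, this call was lost without the filter on low counts and whichever library was left out. CPM rose from 0.786 and 0.634 to 6.17 and 4.42 in EV, and went from 0.880 and 1.21 to 2.07 and 1.91 in WT. The ratio of Cre to GFP was larger in EV than in WT in both replicates.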

How the results depend on the processing

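The direction of the summed histone CPM with Cre was the same in all 5 constructs under DESeq2's size factors, library totals without TMM and without Hist1h1c, and its log2 ratio for MT194 against WT clones fell to 0.023 without Hist1h1c. With the replicate block, the members called numbered 14 for Cre in EV, 1 in WT, 18 in MT194, 16 in MT486 and 20 in DMT. They numbered 9 for WT-Cre against EV-Cre, 5 for the interaction of WT (17.3% of all genes) and 3 for Δ-C60 against WT clones (3.73%). The numbers do not pair the clones, whose correlations were over 0.1 in 3 of 30 pairs of groups (−0.285 to 0.408), and the block changed no other call count by over 1.5 times. DESeq2 called 7 members for MT486, 3 for Δ-C60 against WT(N48) and 19 against WT clones. Without the filter the counts were 0 for the interaction of WT (0.268% of all genes) and 6 for Δ-C60 against WT clones (2.85%), and 0 for the latter without both low-Nelfb WT clones, an alternative chosen after seeing the data. Leaving out 1 library in turn gave 3 to 5 calls in EV (3.49% to 4.91% of all genes), 1 to 6 in MT194 (1.06% to 1.64%), 1 to 1 in MT486 (0.475% to 0.76%), 4 to 10 in DMT (2.51% to 3.75%), 0 to 2 for WT-Cre against EV-Cre (0.943% to 3.27%), 0 to 0 for the interaction (0.0355% to 0.284%) and 0 to 17 for Δ-C60 against WT clones (0.69% to 8.74%). The leave-one-out fits and sums had no replicate block, so a population library left out left its same-numbered partner unpaired. The cause of these differences was not tested, beyond fewer libraries or genes. The log2 ratios of the sums then ran from 0.647 to 1.315 in EV, −0.004 to 0.512 in WT, 0.545 to 1.154 in MT194, 0.229 to 1.114 in MT486, 0.811 to 1.479 in DMT, 0.15 to 1.843 for Δ-C60 against WT(N48), and 1.357 to 3.05, 0.41 to 0.562 and 0.394 to 0.892 for Δ-C60, MT194 and MT486 against WT clones. Beside the sum in WT, which reached −0.004, signs reversed for uncalled genes only, in fits that leave the pairing unused. Within same-numbered pairs, the sum was higher with Cre in 10 of 10. So were Hist1h1c, Hist1h2bc and Hist3h2a, and Hist2h2be was higher in 7. The log2 fold change of Hist1h1c in WT became −0.145 when WT-Cre replicate 1 was left out and −0.204 for WT-GFP replicate 2, with 0.476 at most. In MT486, leaving out MT486-GFP replicate 2 gave −0.155 for Hist1h1c (at most 1.126), −0.012 for Hist1h2bc (−0.095 for MT486-Cre replicate 1, at most 0.876), −0.014 for Hist2h2be (at most 0.390) and −0.005 for Hist3h2a (at most 0.703). Where a library was left out, the remaining one was assumed to vary like the other groups. The 29 untested members had too few counted reads for a test. What part near-identical copies had in this was not tested.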
